A study of Felis catus with 23 samples.

Results

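Serum from 23 cats was ordered by a red cell index, the log2 signal of miR-451a minus that of miR-23a-3p on the same array, and the 8 arrays with the highest index were compared with the 8 with the lowest. The other 7 arrays lay between them. These 16 of 23 arrays were chosen by measured values, so the index and both of its miRNAs are given as a description and carry no test. The 502 human miRNA names that were detected on at least 6 of 23 arrays were tested, with miR-451a and miR-23a-3p left out. Healthy or diseased status entered the fits as a covariate. Fits within a slide or within a group of cats, and an alternative run without group, left it out.

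The series held 1 array per cat, of which 11 had hypertrophic cardiomyopathy (HCM), a disease in which the muscle of the heart wall thickens, and 12 were healthy. The sera were prepared alike: venous blood clotted for 20 min, a spin of 5 min at 600 g followed, and storage was at -80 °C. Total RNA was labelled with Cy3 and hybridised to an Agilent array of human miRNA probes, so every name below is the human name of a probe and was not matched to a cat sequence here. The labels used here name no breed, age, sex or drug, and nothing in them describes the colour of a serum. Each of the 3 slides held both groups, in separate rows, so slide row and group cannot be told apart.

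MicroRNAs are short RNAs that bind messenger RNAs and lower their output. miR-451a is made in red cell precursors from the same primary transcript as miR-144 and is among the most abundant miRNAs of mature red cells, whereas miR-23a-3p is made in many cell types and changes little when red cells break. The difference between them is therefore used in human serum and plasma as a sign of red cell lysis. miR-486-5p, miR-16-5p, miR-92a-3p and miR-25-3p are other miRNAs that red cells hold in quantity.

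The index ran from 3.22 in healthy replicate 16 to -3.86 in HCM replicate 1, with a median of -1.05 over the 23 arrays. It was above 0 on 4 arrays. Healthy replicate 16 (3.22) and healthy replicate 22 (2.31) stood well above the next array, HCM replicate 2 (0.27). The other high arrays were HCM replicate 10 (0.19), healthy replicate 19 (-0.10), healthy replicate 17 (-0.16), HCM replicate 3 (-0.38) and HCM replicate 6 (-0.81). The first array outside them, healthy replicate 18, had an index of -0.83, so the upper boundary separated nearly equal values.

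The low arrays were healthy replicate 14 (-1.61), HCM replicate 9 (-1.81), HCM replicate 5 (-1.88), healthy replicate 15 (-2.33), healthy replicate 26 (-2.74), HCM replicate 8 (-2.75), HCM replicate 7 (-2.84) and HCM replicate 1 (-3.86). The array just outside them, healthy replicate 25, had an index of -1.37. The index computed from all probes of both names gave the same 8 high and 8 low arrays.

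The high arrays did not share a high level of miR-451a. On the log2 scale of intensity scaled to each array's 75th percentile, their miR-451a ran from 4.30 through a median of 7.21 to 12.34. The low arrays ran from 2.77 through 4.55 to 5.40. HCM replicate 2 gave the 4.30, below the median of the low arrays, and entered the high arrays because its miR-23a-3p was 4.03, the lowest of the 23. Its processed intensities were 11.7 for miR-451a and 9.71 for miR-23a-3p, although both probes were called detected.

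For miR-23a-3p the high arrays ran from 4.03 through 7.31 to 9.13 and the low arrays from 5.62 through 6.59 to 8.38, so the ranges overlapped over most of their length. On the low side, HCM replicate 1 (8.38), HCM replicate 8 (8.15) and healthy replicate 26 (8.07) had high miR-23a-3p with a miR-451a between 4.53 and 5.40. HCM replicate 7 had the lowest miR-451a of all arrays, 2.77, with a miR-23a-3p of 5.62. Arrays of 1 class thus differed in which of the index miRNAs was high or low.

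**Figure D1:**
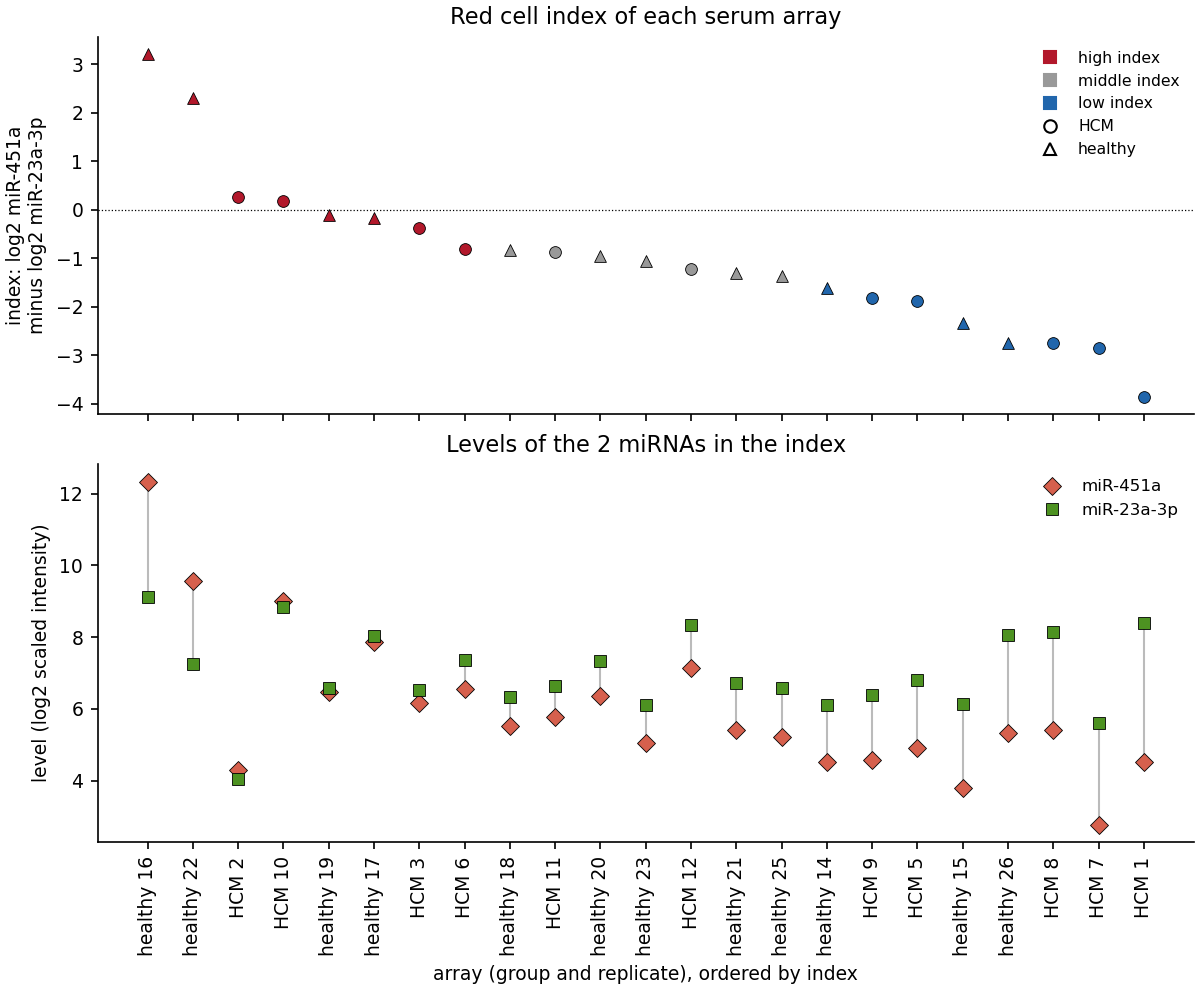
The upper panel plots the red cell index (log2 of miR-451a minus log2 of miR-23a-3p) of each of the 23 arrays, ordered by index, with circles for HCM and triangles for healthy cats and colour for the 8 high, 7 middle and 8 low arrays; the lower panel plots the level of both miRNAs as log2 scaled intensity, joined by a line for each array. Healthy replicates 16 (3.22) and 22 (2.31) stand apart from the others, and HCM replicate 2 has an index of 0.27 with both miRNAs near 4.

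Diseased and healthy cats lay on both sides of the index. The high arrays were 4 HCM and 4 healthy, and the low arrays 5 HCM and 3 healthy (Fisher's exact test, 2-sided, p = 1). The 3 slides held 3, 2 and 3 of the high arrays and 2, 3 and 3 of the low arrays. None of 8 array measures passed an exact permutation test between high and low arrays after Benjamini-Hochberg adjustment. The largest departure was in the hybridisation spike-in, at 14.44 ± 0.23 (SD, n = 8) on high and 14.15 ± 0.31 (SD, n = 8) on low arrays on the log2 scale (exact permutation p = 0.0524, adjusted p = 0.380). The log2 75th percentile intensity was 7.91 ± 0.71 on high and 8.40 ± 0.53 on low arrays (exact permutation p = 0.142, adjusted p = 0.380, n = 8 in each), and the number of detected names was 470 ± 90.9 and 508 ± 47.4 (exact permutation p = 0.319, adjusted p = 0.472). High arrays were thus dimmer on average, by less than the test could separate, and whether brightness has a part in the differences below was not tested beyond the fits that include it.

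Between high and low arrays no miRNA passed the test. limma called 0 of 502 names (0.0%) at an adjusted p of 0.05, and the smallest adjusted p was 0.361. At an unadjusted p of 0.05 it held 22 names (4.38%), of which 16 were higher (3.19%) and 6 lower (1.2%) on the high arrays. This count moved with single arrays, from 10 without healthy replicate 15 to 41 without healthy replicate 19, and the split was 11 higher and 20 lower without healthy replicate 26. It was 5 without healthy replicates 16 and 22. With array brightness as a covariate it was 8. The count was 7 with 10 arrays a side, 30 with 6 arrays a side and 33 with quantile normalization. The range of the 8 high arrays overlapped that of the 8 low arrays for every one of the 502 names (0.0% without overlap). The median difference over all names was 0.02 and the median standard error 0.26, both on the log2 scale. A difference of at least 1 was seen for 10 names, all higher on the high arrays, while 0 names were lower by that much.

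The direction of the typical name depended on the scaling. Of the 502 differences 54.2% were positive with the percentile scaling, 12.5% with no scaling and 84.7% after normexp background correction, where the median differences were -0.33 and 0.31. The split of names at an unadjusted p of 0.05 was 4 higher and 20 lower with no scaling and 29 higher and 4 lower after normexp. Differences below are therefore read against the median of all names.

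Of the 6 tested red cell miRNAs other than miR-451a, 5 had a higher median on the high arrays and miR-4732-5p a lower one, with wide overlap, and none passed the test. The list held 18 names, all with probes on the array, and 6 could be tested. Of these, 5 differences were positive and 1 negative, with a median of 0.82 beside 0.02 for all names tested. The signs were the same without healthy replicates 16 and 22, and the median was 0.52. It was 0.50 without healthy replicate 15, and up to 1.15 (without HCM replicate 2) in the other fits that left out 1 array. The list was drawn up with earlier results of these data known, and its members share clusters and seeds, so the count is a description. The other 12 names were detected on at most 4 arrays, 7 of them on none.

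miR-144-3p is cut from the same primary transcript as miR-451a. On the high arrays it ran from 5.02 (HCM replicate 2) through a median of 7.36 to 9.06 (HCM replicate 10), and on the low arrays from 5.73 through 6.05 to 7.38 (HCM replicate 5). On 7 of 8 high arrays it lay above the low median, although the ranges overlapped. The difference was 0.98 (SE 0.46, limma p = 0.0481, not significant after adjustment), and a second detected probe for the name gave 0.97 where the main probe gave 0.96, both as plain differences of means. Healthy replicate 16, which had the highest miR-451a of all arrays at 12.34, had a miR-144-3p of only 6.84, below the median of the high arrays. The transcript partner of miR-451a was thus not highest where miR-451a was.

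miR-486-5p, abundant in red cells and also made in muscle, was bright on every array. Its high arrays ran from 11.06 through 12.56 to 13.02 and its low arrays from 10.33 through 11.44 to 13.36, so the single highest value of these 16 lay on a low array, HCM replicate 5. The difference was 0.60 (SE 0.45, limma p = 0.205), and 0.39 without healthy replicates 16 and 22 or 0.34 without healthy replicate 15. The 7 middle arrays ran from 10.02 through 11.17 to 11.45, with a median below that of both outer classes. Its level did not follow the order of the index.

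miR-106b-5p and miR-25-3p come from 1 cluster inside a gene for a replication factor and are common in blood cells. miR-106b-5p was 4.08 to 8.23 on high arrays (median 7.06) and 4.57 to 6.97 on low arrays (median 5.82), a difference of 0.91 (SE 0.53, limma p = 0.104). miR-25-3p was 7.36 to 10.38 (median 9.61) and 6.95 to 9.94 (median 8.96), a difference of 0.78 (SE 0.49, limma p = 0.125). HCM replicate 2 had the lowest value of the high arrays for both. The differences without healthy replicates 16 and 22 were 0.53 for miR-106b-5p and 0.51 for miR-25-3p. Without healthy replicate 15 miR-25-3p gave 0.46.

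miR-92a-3p, a member of the miR-17 clusters that red cells also hold, was 8.89 to 11.56 on high arrays (median 10.67) and 8.10 to 10.87 on low arrays (median 10.01), a difference of 0.85 (SE 0.44, limma p = 0.0678), and 0.56 without healthy replicates 16 and 22 or 0.54 without healthy replicate 15. miR-4732-5p, encoded beside the miR-144 and miR-451 genes in human, went the other way: 2.45 to 4.46 on high arrays against 2.63 to 4.15 on low arrays, a difference of -0.33 (SE 0.32, limma p = 0.314), and -0.11 without healthy replicates 16 and 22. It lay close to the floor of 2.45, the lowest value that any signal, detected or not, was given. A second detected probe for miR-4732-5p gave 0.018 where the main probe gave -0.30, both as plain differences of means. Its negative sign thus rests on the main probe.

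**Figure D2:**
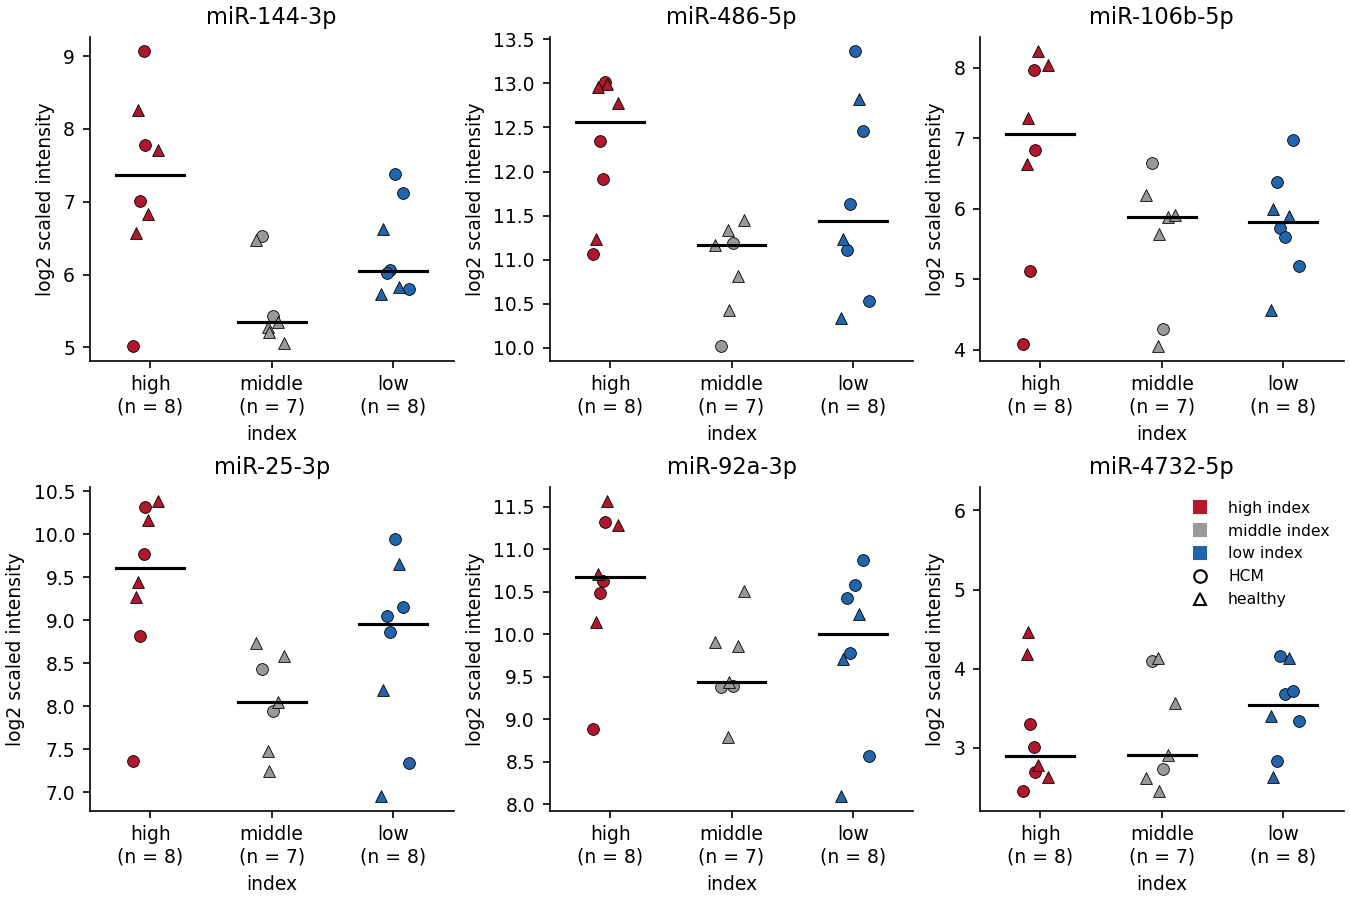
Each panel plots 1 tested red cell miRNA as log2 scaled intensity on the 8 high, 7 middle and 8 low index arrays, with circles for HCM, triangles for healthy cats and a bar for the median. The high and low arrays overlap in all 6 panels, and for miR-486-5p, miR-25-3p, miR-92a-3p and miR-144-3p the middle arrays have the lowest median.

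Red cell names that were too rarely detected for the test were found mostly on the same few arrays. miR-16-5p, a miRNA that red cells and many other cells hold in quantity, was detected on 3 arrays, which were HCM replicate 10 and healthy replicates 16 and 22. miR-15a-5p, from the same cluster, was detected on 4 arrays, of which 3 were high (HCM replicate 10, healthy replicates 16 and 17), 1 was in the middle (HCM replicate 12) and 0 were low. miR-15b-5p and miR-93-5p were each detected on 2 arrays, HCM replicate 10 and healthy replicate 16. The exception was miR-486-3p, the partner strand of miR-486-5p, which was detected only on HCM replicate 8, a low array. In all, 592 names were detected on HCM replicate 10, 439 on healthy replicate 16 and 332 on healthy replicate 22. Healthy replicate 17 had 567 and HCM replicate 12 had 612, the most of any array. How often other rarely detected names fell on these arrays was not counted. The count of cells behind a signal and the RNA per cell cannot be told apart in serum.

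The names with the smallest p were not of the red cell list. Higher on the high arrays were miR-4286, with a difference of 1.64 (SE 0.40, limma p = 0.000719), miR-3135b with 1.74 (SE 0.61), let-7i-5p with 1.48 (SE 0.52), miR-636 with 0.48 (SE 0.18) and miR-301b with 0.85 (SE 0.32). For miR-636, 3 other detected probes gave 0.16 to 0.19 where the main probe gave 0.47, as plain differences of means. With no scaling the miR-636 difference was 0.11. let-7i-5p was detected on 6 high and 2 low arrays and miR-301b on 5 and 2, with 6 of 8 low arrays at the floor for miR-301b. Both reached the filter of 6 arrays only through the high arrays, and the sizes of their differences depend on the floor. miR-4286 ran from 3.95 through 4.91 to 6.57 on the high arrays and from 2.45 through 3.13 to 4.68 on the low arrays, where 2 of 8 arrays were at the floor. All 8 high arrays lay above the low median and all 8 low arrays below the high median, yet the ranges overlapped between 3.95 and 4.68. Without healthy replicates 16 and 22 its difference was 1.30.

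let-7i-5p, of the let-7 family that restrains growth genes in most tissues, was at the floor on 2 of 8 high and 5 of 8 low arrays. The other high arrays reached 6.95 (healthy replicate 16), and the low arrays did not pass 3.31 (HCM replicate 1). Its sister let-7b-5p ran from 2.45 through 4.16 to 5.69 on the high arrays and from 2.45 through 2.85 to 3.46 on the low arrays, a difference of 0.89 (SE 0.35, limma p = 0.0200). Of the 9 names of that family 2 could be tested. Among the others let-7c was detected on 3 arrays (HCM replicate 10, healthy replicates 16 and 17), let-7g-5p on 2 (HCM replicate 10, healthy replicate 16) and let-7a-5p on 1 (healthy replicate 16), all of them high.

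Lower on the high arrays were miR-3153 (-0.65, SE 0.24), miR-4665-5p (-0.82, SE 0.32), miR-551b-5p (-0.67, SE 0.27), miR-762 (-0.66, SE 0.28) and miR-3156-5p (-0.46, SE 0.20). After normexp correction the differences of miR-3153 and miR-551b-5p changed sign, to 0.20 and 0.19. miR-762 was the brightest of these, at 8.28 to 10.34 on high and 9.41 to 11.20 on low arrays. The 24 names of GC-rich or fragment-prone probes to which it belongs had a median difference of 0.02, the same as all names.

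**Figure D3:**
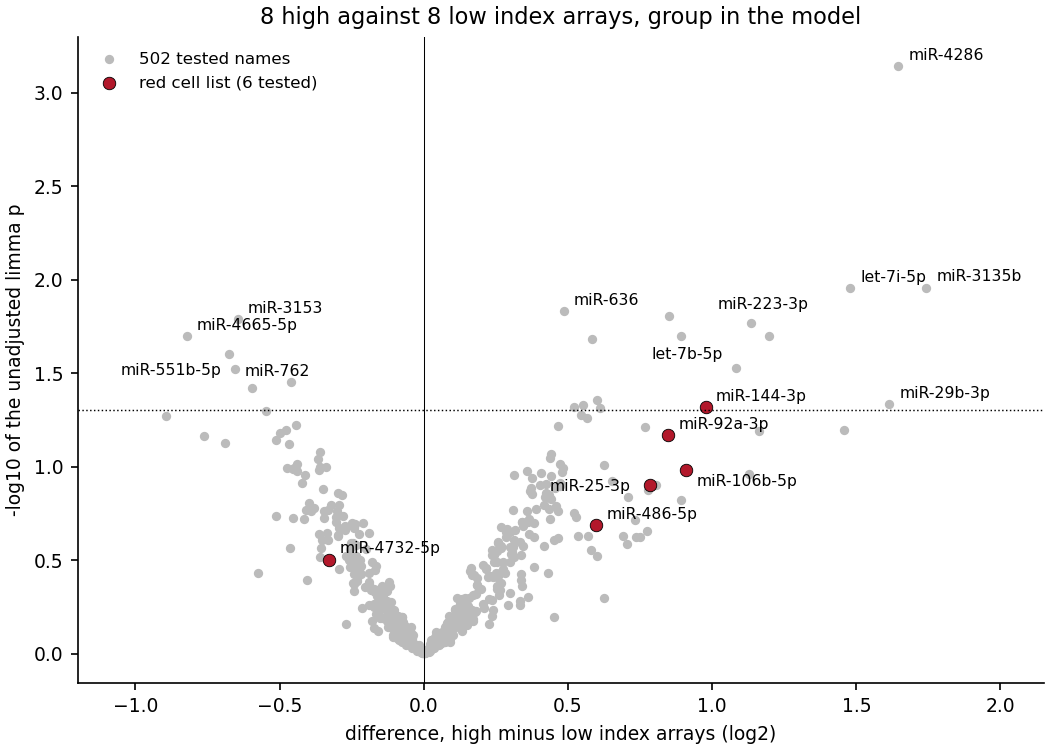
Each point is 1 of the 502 tested names, with the difference between the 8 high and 8 low index arrays (log2) on the x axis and -log10 of the unadjusted limma p on the y axis; the dotted line marks p = 0.05 and red points are the 6 tested red cell names. Of the red cell names 5 lie to the right of 0 and 1, miR-4732-5p, to the left, and miR-4286 has the smallest p of all names.

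Markers of other blood cells and tissues differed between high and low arrays in both directions, with none called. The platelet list had 3 of 10 names tested, with a median of 0.21. It held miR-223-3p, a miRNA of myeloid cells and platelets, which ran from 2.85 through 3.99 to 6.89 on high arrays and from 2.45 through 3.0 to 3.94 on low arrays. Its difference was 1.14 (SE 0.43, limma p = 0.0170), and 0.68 without healthy replicates 16 and 22. The other platelet names lay near 0, at 0.21 (SE 0.36) for miR-197-3p and -0.15 (SE 0.32) for miR-151a-3p.

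The leukocyte list had 6 of 9 names tested, 3 positive and 3 negative, with a median of 0.08. miR-142-5p, of blood cells in general, differed by 0.89 (SE 0.59), miR-342-3p, of lymphocytes, by 0.71 (SE 0.46) and miR-181d by -0.30 (SE 0.19). The vessel wall list had 3 of 5 names tested, with a median of 0.30. Its smooth muscle marker miR-145-5p was 8.03 to 11.98 on high and 8.69 to 13.48 on low arrays, a difference of -0.27 (SE 0.68). The liver marker miR-122-5p (1.13, SE 0.67) and the muscle marker miR-133b (0.62, SE 0.91) had large errors: HCM replicate 10 was at 7.93 and 9.62, while 6 of 8 and 5 of 8 low arrays were at the floor. miR-122-5p was detected on 5 arrays outside the high ones and so reached the filter of 6 arrays only with the high arrays counted.

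Among the other fixed families, the miR-29 family, which targets collagens, had 3 of 3 names tested, with a median of 0.75, led by miR-29b-3p (1.61, SE 0.75, limma p = 0.0464). The miR-17 clusters had 3 of 11 names tested, with a median of 0.85. Among them miR-19b-3p was detected on 4 arrays outside the high ones and so reached the filter only with the high arrays counted. The miR-30 family had 3 of 5 names tested, with a median of -0.23, the miR-320 family 5 of 5 with 0.02, and the DLK1-DIO3 cluster, an imprinted region, 6 of 36 with -0.15. For each of these the median of all 502 names, 0.02, is the value to set beside it.

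The other products of the miR-23, miR-27 and miR-24 genes bear on the subtracted side of the index. Of 11 names 6 were tested, 5 with a positive and 1 with a negative difference, with a median of 0.30. miR-27a-3p (0.57, SE 0.46), miR-27b-3p (0.33, SE 0.55), miR-23b-3p (0.28, SE 0.29) and miR-23c (0.24, SE 0.23) were near the floor on most arrays. Outside the high arrays miR-27a-3p was detected on 3, miR-27b-3p on 4 and miR-23b-3p on 3 arrays. These names thus reached the filter of 6 arrays only with the high arrays counted, and the count of signs is a description. miR-24-3p, cut from the same primary transcripts as miR-23a and miR-27a, ran from 2.45 through 4.92 to 8.27 on high and from 2.45 through 4.10 to 7.54 on low arrays, a difference of 0.45 (SE 0.94, limma p = 0.636). miR-23a-5p, the partner strand of miR-23a-3p, gave -0.22 (SE 0.37). miR-23a-3p, miR-23b-3p and miR-23c have nearly the same sequence, so a probe of one may also bind another.

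Within slides the differences, fitted without group, varied in size and sign, which was not tested as a difference between slides. On slide 3 (3 high, 3 low) the difference was 3.78 for miR-3135b and 4.42 for miR-29b-3p, and both passed within that slide (limma adjusted p = 0.0418 for each). On slide 1 (3 high, 2 low) the same names gave 0.38 and -0.83, and on slide 2 (2 high, 3 low) 0.48 and 0.68. miR-144-3p gave 0.25, 1.26 and 1.61 on slides 1, 2 and 3, and miR-486-5p gave 0.89, 0.87 and 0.45. miR-25-3p (0.23, 1.07 and 1.24) and miR-92a-3p (0.15, 1.01 and 1.41) were positive on each slide, whereas miR-106b-5p gave -0.45, 1.14 and 2.21 and miR-4732-5p 0.06, 0.0020 and -0.57. miR-24-3p gave -3.48, 0.33 and 3.50, and miR-23a-3p itself -2.29, 0.12 and 2.45 as plain differences of means. limma called 0 names within slide 1 and 0 within slide 2, where 22 and 14 held an unadjusted p of 0.05, beside 2 called and 61 on slide 3.

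High and low arrays were also compared within each group of cats. Within healthy arrays (4 high, 3 low) limma called 0 names and 80 held an unadjusted p of 0.05, 77 of them higher on the high arrays. Within HCM arrays (4 high, 5 low) it called 0, and 39 held that p, 7 higher and 32 lower. miR-106b-5p differed by 2.06 within healthy and by 0.02 within HCM arrays, and miR-92a-3p by 1.58 and 0.29. Whether these high against low differences differ between the groups was not tested. The slope on the index as a number over 23 arrays was tested between the groups as an interaction, which called 0 of 502 names (0.0%), with 18 at an unadjusted p of 0.05 (3.59%), 1 higher and 17 lower in HCM (9 and 0 with no scaling). When healthy replicates 16 and 22 were left out it called 0 and held 76 at that p, 27 higher and 49 lower. Both arrays with an index above 2 were healthy, and HCM replicate 2 was in the HCM class.

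The comparison of HCM with healthy cats called 0 of 502 names (0.0%) with the index as a covariate, with 25 at an unadjusted p of 0.05 (4.98%). Without the index it also called 0, with 34 at that p. With the authors' deposited log2 values in place of the scanner signals, the fit with the index called 5 names, all higher in HCM, with adjusted p between 0.0404 and 0.0451. Of these, miR-513a-3p (1.13, SE 0.28) was detected on all 23 arrays. The other 4 passed the filter only through the HCM arrays: the scanner found miR-381-3p above background in 8 of 11 diseased and 2 of 12 healthy cats, miR-376c-3p in 6 and 0, miR-4751 in 8 and 1, and miR-5700 in 10 and 3, so no size is given for them. In the scanner values miR-381-3p and miR-376c-3p were at the floor on all 12 healthy arrays. The names were taken up after their values were seen.

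With the index as a number over all 23 arrays, 2 of 502 names (0.398%) passed. let-7i-5p rose by 0.54 and miR-223-3p by 0.43 on the log2 scale for each unit of the index (limma adjusted p = 0.0342 for both), and 32 names (6.37%) held an unadjusted p of 0.05. let-7i-5p was detected on only 4 arrays outside the high ones, so it reached the filter only through the high arrays and its slope depends on the floor. Without healthy replicates 16 and 22 the fit called 0 names, with 3 at an unadjusted p of 0.05.

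Since arrays of 1 class differed in which index miRNA was high, each name was also fitted on miR-451a and miR-23a-3p together, with group, over the 23 arrays. A slope of 1 here would mean that a name rose 1 log2 unit for each log2 unit of miR-451a at the same miR-23a-3p. Of 502 names, 6 (1.2%) had a called slope on miR-451a and 13 (2.59%) one on miR-23a-3p, and all 19 slopes were positive. At an unadjusted p of 0.05 the counts were 33 (6.57%) and 77 (15.3%). The miRNAs and the names come from the same arrays and were scaled by the same factor, which ties their values together.

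The 6 names that rose with miR-451a were let-7i-5p (slope 0.47, SE 0.07, limma adjusted p = 0.000507), miR-19b-3p (0.54, SE 0.10, adjusted p = 0.00443), miR-223-3p (0.39, SE 0.08, adjusted p = 0.00751), miR-26a-5p (0.36, SE 0.09, adjusted p = 0.0428), let-7b-5p (0.26, SE 0.07, adjusted p = 0.0499) and miR-128 (0.24, SE 0.06, adjusted p = 0.0499). miR-19b-3p belongs to the miR-17 clusters, miR-26a-5p is made in most tissues and miR-128 is known best from neurons. let-7i-5p, miR-19b-3p and miR-26a-5p were each detected on 4 arrays outside the high ones and so reached the filter only through those. None of the 6 tested red cell names was among the 6 called. Their slopes on miR-451a were 0.22 for miR-144-3p, 0.26 for miR-486-5p, 0.25 for miR-106b-5p, 0.26 for miR-25-3p, 0.23 for miR-92a-3p and -0.09 for miR-4732-5p, each with an adjusted p of at least 0.593, beside a median slope of 0.01 for all names.

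The calls of the slopes on miR-451a depended on a few arrays. let-7i-5p was highest on healthy replicate 16 (6.95), HCM replicate 10 (5.67), healthy replicate 22 (5.04) and healthy replicate 17 (4.43), which also had the 4 highest miR-451a levels, at 12.34, 9.02, 9.56 and 7.86. On 10 of 23 arrays let-7i-5p was at the floor. miR-19b-3p was highest on healthy replicate 16 (8.07) and HCM replicate 10 (7.26) and was at the floor on 12 arrays. miR-223-3p stood at 6.89 on healthy replicate 16, with healthy replicate 22 (4.68), healthy replicate 20 (4.59) and HCM replicate 10 (4.38) next.

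Without healthy replicates 16 and 22 limma called 0 slopes on miR-451a, with 9 names at an unadjusted p of 0.05. let-7i-5p then had a slope of 0.38, miR-19b-3p 0.42 and miR-223-3p 0.29, each with an adjusted p of 0.999. Without healthy replicate 16 alone, or without HCM replicate 2 alone, 1 name was called. let-7i-5p kept its call in all 23 fits that left out 1 array, with slopes from 0.43 to 0.52. miR-19b-3p kept it in 21 and miR-223-3p in 20, losing it without HCM replicate 2 and without healthy replicate 16 (and miR-223-3p also without healthy replicate 26). let-7b-5p, miR-26a-5p and miR-128 lost it in 15, 11 and 18 of the 23. Within slides the slopes of let-7i-5p were 0.38, 0.26 and 0.32 on slides 1, 2 and 3, whereas those of miR-19b-3p were 0.44, -0.17 and 0.16 and those of miR-223-3p 0.25, -0.37 and 0.53.

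The 13 names that rose with miR-23a-3p were led by its own cluster partner. miR-24-3p had a slope of 1.40 (SE 0.22, limma adjusted p = 0.000596) and miR-145-5p, of smooth muscle, one of 1.10 (SE 0.19, adjusted p = 0.00193). They were followed by miR-497-5p (0.93, SE 0.23), miR-4291 (0.81, SE 0.18), miR-21-5p (0.68, SE 0.13), which is abundant in many cell types, miR-29a-3p (0.67, SE 0.18), miR-202-3p (0.65, SE 0.12) and miR-140-3p (0.65, SE 0.13). The rest were miR-361-5p (0.63, SE 0.16), miR-29c-3p (0.61, SE 0.16), miR-30a-5p (0.57, SE 0.12), miR-342-3p (0.54, SE 0.13) and miR-222-3p (0.47, SE 0.11). Of the other 5 tested names of the miR-23, miR-27 and miR-24 genes none was called in these values: miR-27b-3p had a slope of 0.49 and miR-27a-3p 0.37, miR-23b-3p 0.22, and miR-23a-5p -0.09 and miR-23c -0.19. With the deposited values miR-27a-3p (0.76, limma adjusted p = 0.00251), miR-27b-3p (0.71, adjusted p = 0.0232) and miR-23b-3p (0.62, adjusted p = 2.94e-05) were called. miR-23a-5p (-0.046) and miR-23c (-0.24) were not.

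miR-24-3p was highest on HCM replicate 10 (8.27), healthy replicate 16 (7.84), HCM replicate 12 (7.83) and healthy replicate 26 (7.54), arrays of the high, middle and low index alike, and was at the floor on 4. miR-145-5p was highest on healthy replicate 26 (13.48), HCM replicate 10 (11.98), HCM replicate 8 (11.61) and HCM replicate 1 (11.55). Of these 4 arrays 3 were low index arrays, the 3 with the highest miR-23a-3p of that class. miR-21-5p ran from 4.51 on HCM replicate 2 through a median of 7.47 to 8.85 on HCM replicate 10. miR-4291 was detected on only 7 arrays, and 5 of 8 high, 5 of 8 low and 4 of 7 middle arrays were at the floor. It was highest on HCM replicates 1, 8, 10 and 12 and healthy replicates 16 and 26, the arrays with the highest miR-23a-3p. Its place among the tested names and the size of its slope thus rest on those arrays and on the floor.

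The slopes on miR-23a-3p were positive on every slide for all 13 names, while 3 of the 6 on miR-451a were negative on slide 2. On slides 1, 2 and 3 the medians of the 13 were 0.66, 0.85 and 0.83. Both sets of names were called with positive slopes over these same arrays, which favours positive slopes within slides. The signs by slide are therefore a description. Without healthy replicates 16 and 22, 10 names were called and all 10 were among the 13. miR-24-3p and miR-145-5p kept their call in all 23 fits that left out 1 array, with slopes from 1.23 to 1.90 and from 0.84 to 1.37. miR-29a-3p lost its call in 16 and miR-29c-3p in 14 of the 23, and the other 9 in 1 to 4. Without HCM replicate 1, or without HCM replicate 2, 5 names were called, and 6 without healthy replicate 26. With no scaling between arrays 239 names were called, the 13 among them, so the count depends on the scaling. Where these names come from in serum was not tested.

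**Figure D4:**
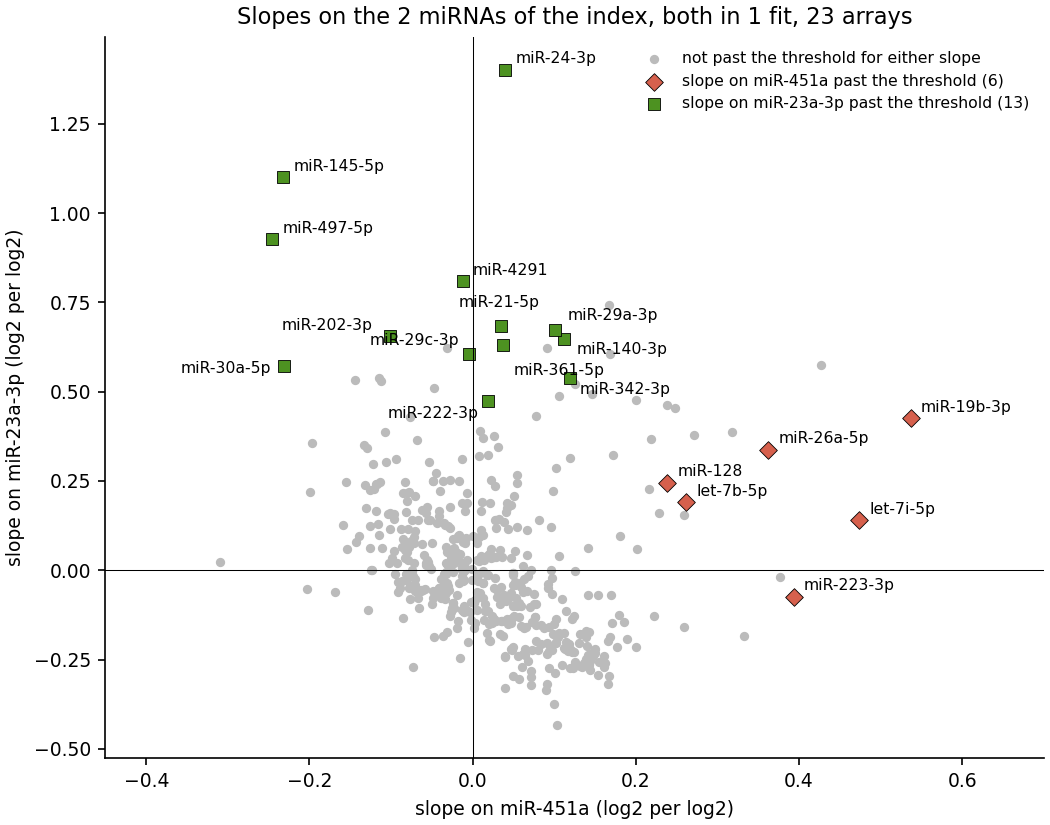
Each point is 1 of the 502 tested names, with its slope on miR-451a on the x axis and its slope on miR-23a-3p on the y axis (log2 per log2), both from 1 fit over 23 arrays with group. The 6 names called on miR-451a (diamonds) lie to the right and the 13 called on miR-23a-3p (squares) at the top, led by miR-24-3p at 1.40.

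**Figure D5:**
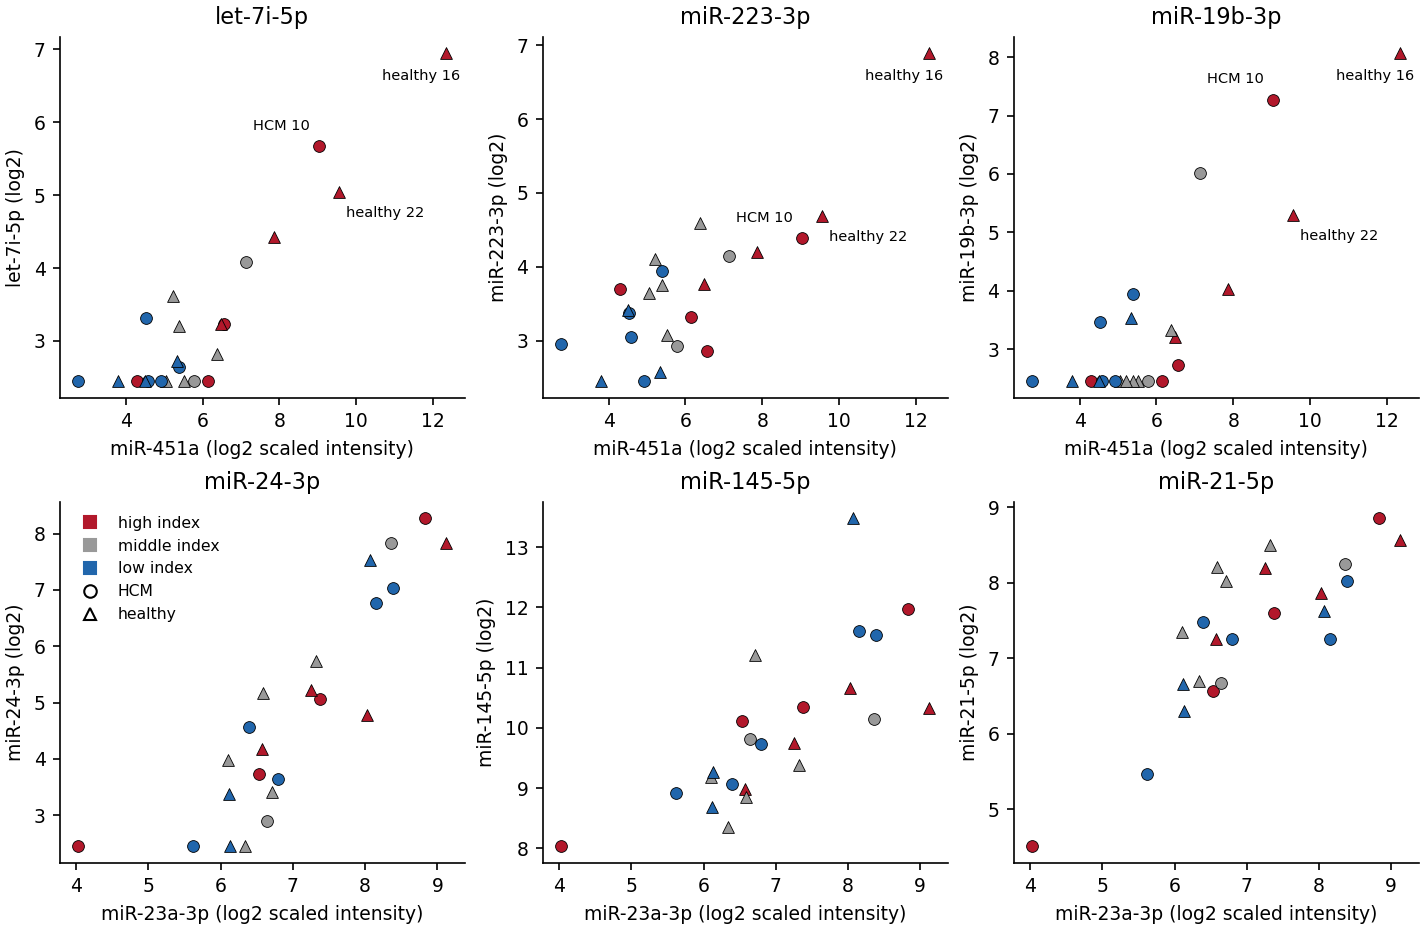
Each panel plots a name's log2 scaled intensity on the 23 arrays against miR-451a (upper row: let-7i-5p, miR-223-3p, miR-19b-3p) or miR-23a-3p (lower row: miR-24-3p, miR-145-5p, miR-21-5p), with circles for HCM, triangles for healthy cats and colour for index class. In the upper row healthy replicates 16 and 22 and HCM replicate 10 extend far to the right of the other arrays. In the lower row high, middle and low index arrays are mixed along the axis, and HCM replicate 2 (miR-23a-3p 4.03) stands apart at the left.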

How the data were processed

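Spot intensity on a linear scale came, per the file headers, from Agilent Feature Extraction 10.7.3.1, whose processed signal is background-subtracted but not scaled between arrays. Other columns hold, per the file headers, flags of 0 or 1 for each spot. The authors' deposited series table holds log2 values for 1750 miRNA probes with 965 names. Set against the processed signals above an intensity of 8, its columns correlated at 0.987 to 0.9998 with slopes of 0.950 to 0.980, so direction and log base were settled from the data, while its normalization stays unknown (column medians over names 2.75 to 3.25).

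Flagged spots (1.81% to 3.95% per array) were left out and the rest averaged per probe. A probe was detected where 50% or more of its spots carried the scanner's well-above-background flag. Each array was divided by its 75th percentile (90.5 to 699) of the 508 probes that all 23 arrays detected, floored at 5.45 (log2 2.45), the 5th percentile of detected scaled signals, and log2 transformed. The brightest probe stood for each name. Arrays detected 322 to 612 names, and their number limits the precision of every value.

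High and low arrays were compared by limma 3.58.1 (lmFit, eBayes, 2-sided, group as covariate) in R 4.3.3 with Benjamini-Hochberg adjustment over 502 names and a threshold of 0.05. Fits within a slide or within a group of cats had no group covariate. Array measures were compared by exact 2-sided permutation of the difference in means, adjusted over 8 measures. Each array is presumed to be a separate cat. On simulated data with 502 names in 20 runs, 3.88%, 64.0%, 95.6% and 98.8% of 40 changed names were recovered at differences of 0.5, 1, 2 and 3.

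The arrays, lists and most alternatives were chosen with earlier results of these data known. Named were up to 10 called names in each direction, or else those with the smallest p up to 5, every tested member of the red cell and the miR-23, miR-27 and miR-24 lists, and up to 3 members of each other list. Names with a called slope were added after the values were seen. Alternatives covered scaling, background, floor, detection filter, the number of arrays in a class, slide, brightness and leaving out arrays. A planned normexp correction on the mean signal used the median signal instead, as the mean was not among the columns used here. Python 3.11.15 with numpy 2.4.6, pandas 2.3.3, scipy 1.17.1 and matplotlib 3.10.9 was used.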

Additional observations from a re-analysis of the deposited data

Results flagged for a closer look

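Dixon's gap test was run on 132 sets of 8 values (58 named miRNAs and 8 array measures, each in the high and in the low arrays). In 14 sets an array lay far from the other 7. A rate of about 1 set in 20 by chance holds for independent sets of normal values. Here the sets share arrays, some hold values tied at the floor, and many names were chosen by values in these data. The 14 sets therefore cannot be set against that rate. All levels are log2 scaled intensities.

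HCM replicate 2 was the low extreme among the high arrays for miR-30d-5p (7.0, next 7.90), miR-30e-5p (6.65, next 8.59), miR-140-3p (3.66, next 6.43) and miR-361-5p (3.22, next 5.16). This is the array with the lowest miR-23a-3p, 4.03.

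HCM replicate 10 was the high extreme among the high arrays for the liver miRNA miR-122-5p (7.93, next 4.84), the muscle miRNA miR-133b (9.62, next 5.02) and miR-381-3p (3.52, next 2.81). Healthy replicate 16 was the high extreme for miR-223-3p (6.89, next 4.68), and HCM replicate 3 for miR-3153 (3.70, next 2.95).

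Among the low arrays, where most of the others were at or near the floor of 2.45, HCM replicate 1 was the high extreme for let-7i-5p (3.31, next 2.72) and miR-122-5p (4.48, next 2.59), healthy replicate 26 for miR-27a-3p (3.75, next 3.02) and miR-27b-3p (5.69, next 2.72), and HCM replicate 8 for miR-301b (3.82, next 2.72).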

How the results depend on the processing

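limma called 0 names between high and low arrays (502 tested, or 249, 541 or 630 under other filters) in every alternative run, including each of the 16 fits that left out 1 array, except that the index as a number called 2 and slide 3 alone 2. The comparison of HCM with healthy called 0 throughout, 23 fits without 1 array included, except 5 with the deposited values. Slopes on miR-451a (6 called) gave 3 with no scaling, 3 with the deposited values, 3 with brightness as a covariate, 0 without healthy replicates 16 and 22, and 1 to 7 when 1 array was left out. Slopes on miR-23a-3p (13) gave 239, 28 and 23 under the first 3 of these and 5 to 16 when 1 array was left out. Signs of named differences changed in the following settings, none of them called. After normexp: miR-3153 0.20, miR-551b-5p 0.19, miR-4732-5p 0.29, miR-23a-5p 0.14, miR-151a-3p 0.091, miR-181d 0.30, miR-134 0.12, miR-381-3p 0.33 and miR-409-3p 0.36. With no scaling: miR-23c -0.064, miR-197-3p -0.12, miR-29c-3p -0.17, miR-30e-5p -0.17, miR-320d -0.36, miR-1290 -0.13 and miR-1246 -0.073. As slopes on the index without healthy replicates 16 and 22: miR-4732-5p 0.024, miR-24-3p -0.27, miR-197-3p -0.10, miR-221-3p -0.053, miR-29c-3p -0.039, miR-320d -0.017, miR-1290 -0.012 and miR-1246 -0.036. In high against low without those 2: miR-197-3p -0.014 and miR-1290 -0.0054. With 10 arrays a side: miR-197-3p -0.071, miR-17-3p -0.13 and miR-320d -0.046; with 6: miR-23a-5p 0.28. With brightness as a covariate: miR-23c -0.067; deposited values: miR-409-3p 0.045; a higher floor: miR-197-3p -0.025; the index as a number: miR-17-3p -0.028. Leaving out 1 array gave miR-27b-3p -0.089 to 0.79, miR-24-3p -0.095 to 0.97, miR-151a-3p -0.27 to 0.048, miR-145-5p -0.62 to 0.32, miR-133b -0.36 to 1.04 and miR-29c-3p -0.070 to 0.59. Apart from what the scaling itself does, the cause of these changes was not tested. In simulated data of independent normal values with no floor, the high against low test recovered 3.88% of differences of 0.5, 64.0% of 1 and 95.6% of 2. These rates need not hold for the measured values. No paired analysis was possible because HCM and healthy arrays share no replicate number.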
